A study of Mus musculus with 4 samples.

Results

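Some regions occupied by RYBP in FLK1+ mesoderm lay one after another in chains, like beads on a string, and these chains are described here. A chain was taken as 5 or more consecutive regions of the authors' merged RYBP list, on an autosome, with no more than 5 kb between neighbours, and its members are those of its regions that are under 4000 bp wide. Chains that overlap a Hox gene were left out, which removed 6 chains with 85 regions. This left 271 chains with 1790 regions, of which 145 were too wide to be members, so that 1645 of the 22409 merged regions (7.34%) were members. The members were thus chosen by the position and width of called peaks, and chain length, spacing and width are given below as descriptions.

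All samples were wild-type FLK1+ mesoderm cells from embryoid bodies (EBs), aggregates of differentiating mouse embryonic stem cells, of the strain background C57Bl/6 X Sv129. The labels place the EBs at day 3.75, the study's methods a little later for RYBP, and the design text of the series adds that the cells lacked PDGFRa. There were 2 RYBP ChIP samples, made with an antibody against DEDAF (another name of RYBP) from separate differentiations, and 2 input samples, which were not analysed here. The design text names SCL as the precipitated factor, whereas the title and the antibody name RYBP, and the samples were taken as RYBP ChIP. With 1 group of 2 replicates and lists of called peaks, no test between conditions was possible, and the comparisons below are counts, medians and shares with 95% exact binomial (Clopper-Pearson) intervals. These cover counting error only, and neighbouring regions are not independent. Positions are those of build mm9, and "at a start site" means within 2.5 kb of an annotated protein-coding transcription start.

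RYBP is a subunit of the non-canonical forms of Polycomb repressive complex 1, which place ubiquitin on histone H2A. Polycomb complexes typically occupy CpG islands, short stretches that have kept many CpG dinucleotides and that often lie at promoters, and they are best known for holding developmental regulators silent until their lineage is chosen. Where Polycomb marks extend over a locus, ChIP peaks often lie in series along it, and the Hox clusters, left out here, are the textbook case.

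Stretches of 120 bases are shown from the longest chain and from the longest chain on a single gene. A stretch is a small part of its region, and its CpG count need not follow that of the whole region. They lie nearest the centre of each region or gap, outside annotated UTRs, on the plus strand of NCBIM37 (the assembly of mm9), and CpG dinucleotides are in capitals. The first chain ran over 67148 bp from Pde4c to Il12rb1, at chr8:73266732-73333879, and the second over 64028 bp of Srcin1, at chr11:97376994-97441021. The isolated region at Fancf (a gene of DNA repair) is shown beside them. By the lower of its 2 replicate values, it came first among the isolated regions searched, which did not cover every autosome.
Il12rb1-side member, strongest of the longest chain: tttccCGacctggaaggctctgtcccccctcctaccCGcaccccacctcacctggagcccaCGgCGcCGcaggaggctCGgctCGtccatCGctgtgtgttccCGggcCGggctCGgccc
Mast3 member, weakest found in both replicates: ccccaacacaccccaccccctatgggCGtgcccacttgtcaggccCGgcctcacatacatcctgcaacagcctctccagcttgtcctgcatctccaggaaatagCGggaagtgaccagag
Ifi30 member, weakest found in replicate 1 alone: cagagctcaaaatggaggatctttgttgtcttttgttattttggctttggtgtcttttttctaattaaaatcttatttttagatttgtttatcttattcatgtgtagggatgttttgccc
widest gap of the longest chain: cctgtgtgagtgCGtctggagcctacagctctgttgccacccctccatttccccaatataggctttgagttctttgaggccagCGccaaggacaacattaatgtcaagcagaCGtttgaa
Srcin1 member, strongest: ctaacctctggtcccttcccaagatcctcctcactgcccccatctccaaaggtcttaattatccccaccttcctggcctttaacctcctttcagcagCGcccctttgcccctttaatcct
Srcin1 member, weakest found in both replicates: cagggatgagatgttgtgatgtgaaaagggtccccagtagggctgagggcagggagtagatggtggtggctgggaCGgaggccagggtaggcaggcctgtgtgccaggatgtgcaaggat
member upstream of Srcin1, weakest found in replicate 1 alone: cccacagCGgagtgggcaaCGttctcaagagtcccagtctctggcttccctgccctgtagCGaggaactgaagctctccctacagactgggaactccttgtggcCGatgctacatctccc
widest gap of the Srcin1 chain: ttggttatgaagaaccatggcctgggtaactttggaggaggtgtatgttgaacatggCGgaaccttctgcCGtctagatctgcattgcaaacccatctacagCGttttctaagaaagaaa
isolated region at Fancf: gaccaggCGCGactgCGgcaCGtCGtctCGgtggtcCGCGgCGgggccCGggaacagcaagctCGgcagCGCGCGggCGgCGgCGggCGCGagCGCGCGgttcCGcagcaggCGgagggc
The strongest member of the longest chain, between Mast3 and Il12rb1 at chr8:73327495-73330206, held 11 CpG in its stretch (chr8:73328791-73328910), and it stood 3.92-fold over input in replicate 1 and 3.98-fold in replicate 2. The stretch of the Mast3 member (chr8:73311971-73312090, on a coding exon) held 3 CpG, and its region stood at 2.81-fold in replicate 1 and 3.449-fold in replicate 2. That of the Ifi30 member (chr8:73287258-73287377, intronic) held 0 CpG, and the region was called in replicate 1 alone, at 2.74-fold. The stretch from the widest gap, which was 4935 bp long and lay on Rab3a (chr8:73281736-73281855, on a coding exon), held 3 CpG. The 3 Srcin1 members shown carried 1, 1 and 4 CpG, and the gap 3. Their stretches lie at chr11:97408621-97408740, chr11:97404525-97404644 (both intronic) and chr11:97440659-97440778 (just upstream of the gene), and that of the gap at chr11:97390437-97390556 (intronic). The strongest Srcin1 member shown reached 4.31-fold in replicate 1 and 5.39-fold in replicate 2. Its central stretch held 1 CpG, but its whole region had 4.37 CpG per 100 bp. The member upstream of Srcin1, with 4 CpG in its stretch, had 1.49 per 100 bp over its region. The stretch of the isolated region (chr7:59117253-59117372, in the coding exon of Fancf) held 24 CpG, and this region had values of 8.15 and 12.5.

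Most chains were short. There were 120 chains of 5 regions (44.3%), 72 of 6 and 27 of 7, whereas 52 had 8 or more, 29 had 10 or more and the longest had 21. Chains spanned a median of 18421 bp (quartiles 13722.5 and 24634 bp, range 5848 to 67756 bp). Together they took up 5.80 Mb, or 0.234% of the autosomes. Regions covered a median of 45.9% of a chain, and the rest was gap. The 1519 gaps had a median of 1575 bp (quartiles 925 and 2793 bp), 59.6% of them were within 2000 bp and 9.15% were over 4000 bp, close to the 5 kb allowed. Members had a median width of 840 bp (quartiles 484 and 1579 bp), against 744 bp for the 13554 isolated regions, those with no other region within 5 kb and of the same width limit.

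At the edge of the rule, the 5-region chain with the tightest spacing lay on Wt1, the Wilms tumour transcription factor gene, where no gap exceeded 745 bp. The highest value in that chain was 4.10-fold in replicate 1 and 6.86-fold in replicate 2. The loosest lay on Casz1, a zinc finger factor of heart development, where the widest gap was 4983 bp and the highest values were 3.83 and 4.68. Just outside, the tightest group of 4 regions lay on Igsf21, with no gap over 752 bp and values of 3.69 and 3.76. There were 225 groups of 4 regions, and in 35 of them a further region lay 5 to 6 kb away. The widest member measured 3988 bp and the narrowest chain region left out for its width 4018 bp.

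**Figure D1:**
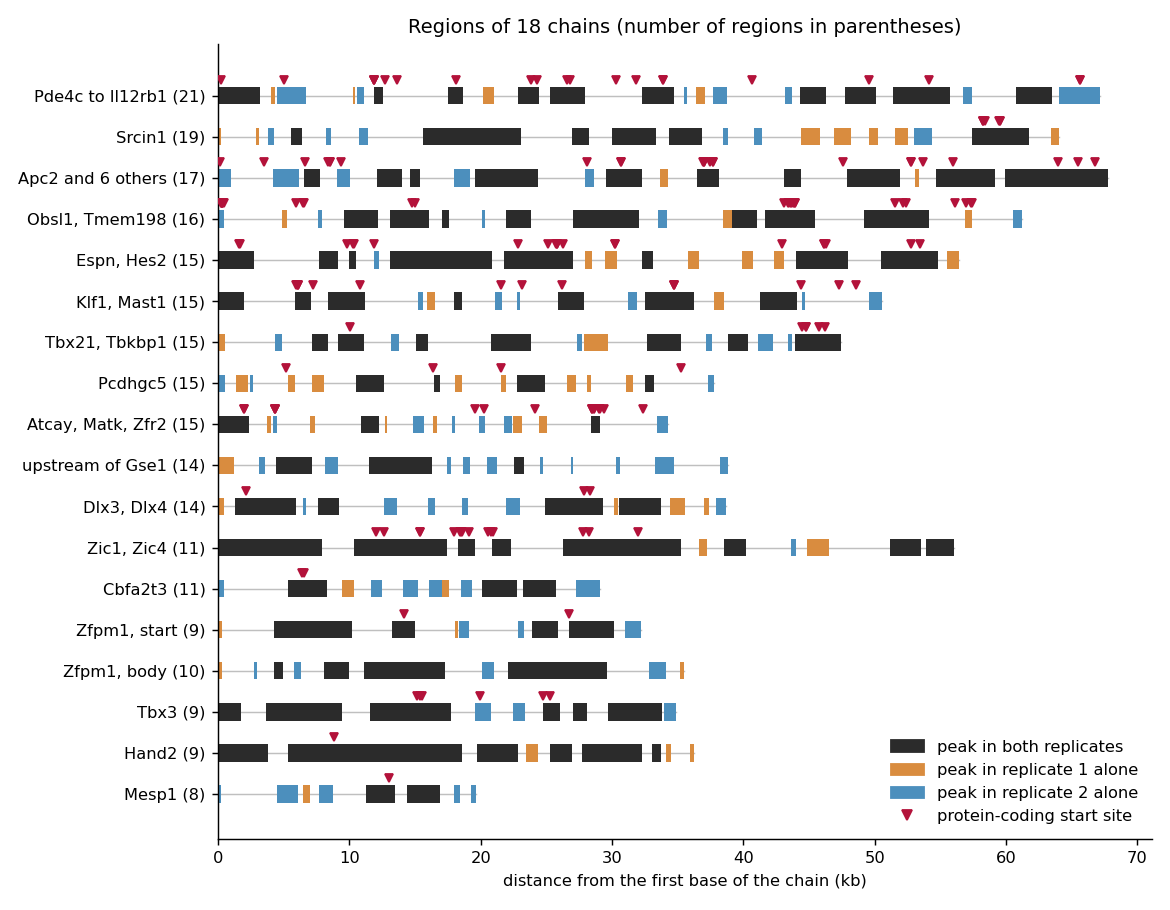
Map of the regions in 18 chains, drawn to scale from the first base of each chain (x axis, kb), with 1 chain per line and the number of its regions in parentheses. Black bars are regions with a peak in both replicates, orange bars in replicate 1 alone and blue bars in replicate 2 alone, and triangles mark annotated protein-coding start sites. The longest chain (21 regions) has start sites along its whole length, the Srcin1 chain (19 regions) only near one end. Regions called in a single replicate lie between those called in both and also at chain ends, as in the Srcin1 chain.

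The replicates did not contain the same beads. Members were found in both replicates in 38.0% of cases (625 of 1645, interval 35.6 to 40.4%), against 42.5% of all autosomal merged regions under 4000 bp and 45.8% of isolated regions (interval 44.9 to 46.6%). A further 432 members came from replicate 1 alone and 588 from replicate 2 alone. Only 7 chains had every region in both replicates, 48 had at least 5 such regions and 12 had 0. Of the 1519 pairs of neighbours, 301 were found in both replicates at either end, and 258 (17.0%) set a region of replicate 1 alone beside one of replicate 2 alone, at a median gap of 1305.5 bp. The chains of the merged list were therefore in part put together from the calls of different replicates. When each replicate was chained by itself, 91 of the 271 chains overlapped a chain of replicate 1, 122 a chain of replicate 2, 48 one of each, and 106 (39.1%) none.

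When chains were built from the regions found in both replicates, 32 remained, and they overlapped 32 of the 271. The 8 lists of developmental transcription factors (homeobox outside Hox, forkhead, Sox, T-box, Gata, Pax, bHLH and zinc finger) together held 245 genes. They cover chosen families only. Homeobox genes outside them, such as Onecut1 and Gsx2 on the 32 chains and Mnx1 and Barx1 on others, were not counted. A listed gene had its start in 36 of all 271 chains. These were 13 of the 32 chains (40.6%) and 23 of the other 239 chains (9.62%). The 13 were the chains of Hes2, of Zic1 and Zic4, of Neurod2, Pou3f3, Hand2, Pax7, Gata3, Sox2, Otx2, Isl1 and Pax3, of Zic2 and Zic5, and of Barhl2. These genes were named after their values had been seen, and no test was made on the counts. The chain on Otx2, a homeobox factor of the anterior brain, had all its 6 regions in both replicates, and those on Pax3, on Barhl2 and on Zic2 and Zic5 had all 5. The other chains with every region in both replicates held no listed factor, namely that of Jak3 and Unc13a (8 regions), that of Cnih2 (5) and one that overlapped no protein-coding gene (5, on chromosome 3). The remaining 19 of the 32 included the gene-rich chain from Pde4c to Il12rb1, in which 10 of 21 regions were in both replicates, and a pair of chains on Nfix, a nuclear factor I gene, with 9 of 10 and 5 of 12 regions.

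Members were far less often CpG-rich than regions standing alone. A region was called CpG-rich where its GC content exceeded 50% and its ratio of observed to expected CpG exceeded 0.6, a common definition of a CpG island applied to the whole region. This held for 171 members (10.4%, interval 8.96 to 11.97%), for 51.3% of isolated regions (interval 50.4 to 52.1%) and for 40.0% of all autosomal regions of the same width limit. The CpG density was 2.76 per 100 bp (SD 1.95 over members) against 5.55 (SD 3.70 over isolated regions), whereas GC content differed less, at 55.4% and 59.5%. Away from start sites the CpG densities were close, at 2.28 and 2.57, and at start sites they were 3.51 and 7.32. The CpG-rich share still differed away from start sites, at 5.29% of members and 12.9% of isolated regions. The same order was present at equal width. Among regions of 1000 to 2000 bp, 13.4% of 388 members and 70.1% of 3367 isolated regions were CpG-rich, and among those of 500 to 1000 bp the shares were 6.86% and 47.6%. In the replicates taken alone, chained anew, 16.8% of members and 55.9% of isolated regions were CpG-rich in replicate 1, and 17.0% and 61.0% in replicate 2.

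Members were also less often at start sites, at 39.1% (643 of 1645, interval 36.7 to 41.5%) against 62.8% of isolated regions (interval 62.0 to 63.6%) and 58% of all. The members not at a start site were spread over coding exons (11.9% of members, 4.72% of isolated regions), introns (19.5% and 9.86%) and intergenic DNA (28.3% and 21.9%). The intron share includes regions inside the very long gene model Gm20388 on chromosome 8, described below. On that chromosome 41.2% of members and 18.1% of isolated regions were intronic. Outside it, 15.2% of members were intronic and 31.5% intergenic. The start-site share and the CpG-rich share both fell step by step with the size of the group to which a region belonged. At a start site were 62.8% of single regions, 56.8% in pairs, 48.7% in groups of 3, 44.1% in groups of 4, 39.8% in chains of 5 to 7 and 37.6% in chains of 8 or more. CpG-rich were 51.3%, 27.7%, 19.7%, 12.7%, 11.5% and 7.99% in the same order. The share found in both replicates did not follow this order, since it was 45.8% for single regions and lay between 36.2% and 40.0% for all larger groups.

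**Figure D2:**
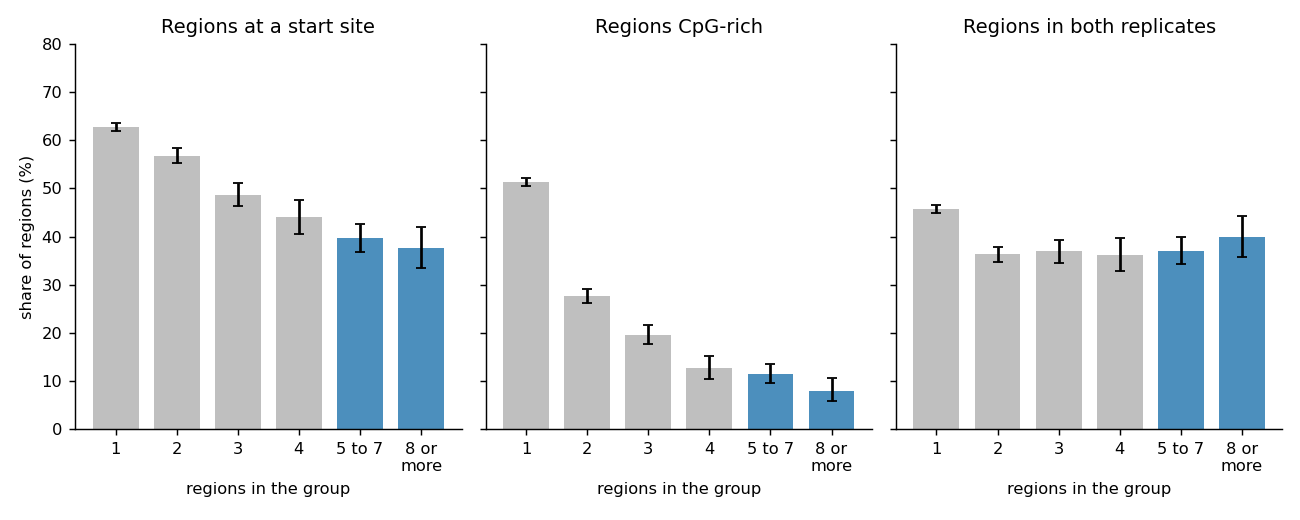
Share of regions under 4000 bp (y axis, %) that were at a protein-coding start site, CpG-rich or found in both replicates, by the number of regions in the group to which they belong (x axis). Blue bars are chain members, grey bars smaller groups, and error bars 95% exact binomial intervals. The first share goes from 62.8% to 37.6% and the second from 51.3% to 7.99% between single regions and chains of 8 or more, and the third drops from 45.8% to 36.3% between single regions and pairs.

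Fold enrichment, the deposited linear ratio of ChIP signal to local background, was modest along the chains. Its median over members was 3.17 in replicate 1 (quartiles 2.95 and 3.57, 1057 members with a peak) and 3.43 in replicate 2 (quartiles 3.19 and 3.90, 1213 members). Isolated regions had medians of 3.32 and 3.64. At start sites members stood at 3.25 and 3.55 and isolated regions at 3.46 and 3.83, whereas away from them the order turned, with 3.13 and 3.37 for members and 3.09 and 3.33 for isolated regions. These differences between medians were smaller than the interquartile ranges. Off start sites, 29.4% of members and 16.0% of isolated regions were found in both replicates, and at start sites 51.3% and 63.4%. Members that were CpG-rich had medians of 3.78 and 4.26 and 75.4% of them were in both replicates, against 3.13, 3.39 and 33.6% for the 1474 others. Over the 625 members with a peak in both replicates, 76.5% had the higher value in replicate 2, and the Spearman correlation between the replicates was 0.51, as a description over regions that share their libraries.

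**Figure D3:**
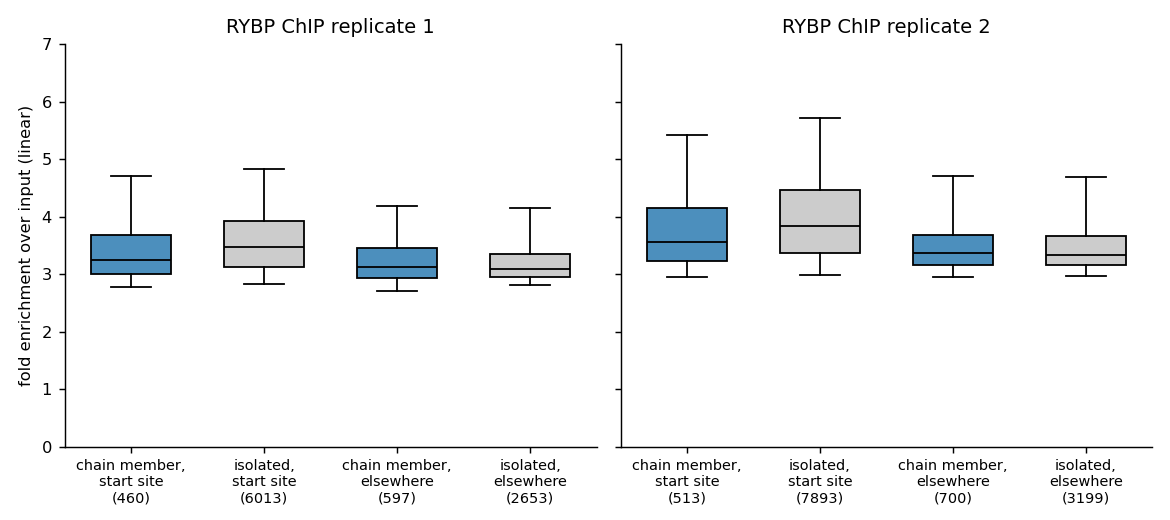
Fold enrichment over input (y axis, linear) in replicate 1 and replicate 2, for chain members (blue) and isolated regions (grey) at start sites and elsewhere, with the number of regions that had a peak in parentheses. Boxes give quartiles with the median, whiskers the 5th and 95th percentiles. Members lie below isolated regions at start sites (3.25 against 3.46 in replicate 1) and level with them elsewhere (3.13 against 3.09).

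Within a chain the strongest bead was usually at a promoter. The region with the highest fold enrichment was at a start site in 177 of 270 chains in replicate 1 (65.6%) and in 180 of 271 in replicate 2 (66.4%), although 41.9% of all chain regions were at one. Of the 175 chains that had values both at and away from start sites in replicate 1, the median was higher at start sites in 136, and in replicate 2 this was so in 148 of 192. The 10 strongest members were ranked by the lower of their 2 replicate values, and 8 of them were at a start site.

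The stretches of genome that carried chains were rich in GC, in CpG and in genes. The span of a chain had a mean GC content of 52.8% (SD 3.19 over 271 chains), against 49.1% (SD 3.70) in flanks of the same length on either side and 41.9% over the autosomes, and it exceeded that of its own flanks in 248 chains. CpG density was 2.39 per 100 bp (SD 0.5499) in spans, 1.42 in flanks and 0.851 over the autosomes. The enrichment in CpG sat in the regions themselves, with 3.40 per 100 bp there and 1.43 in the gaps between them, and in 138 of 271 chains the gaps exceeded the flanks. For GC, gaps had 49.9% and exceeded the flanks in 171 chains. Start sites of 7.005 protein-coding genes fell on each 100 kb of span, against 2.57 in flanks and 0.861 over the autosomes. Since 58% of all regions lie at start sites, a span drawn around 5 regions will hold start sites, and this density follows in part from the rule. A gene with starts in both a span and its flanks was counted in the span only, which lowers the value for flanks. In all, 119 chains held the start of 1 gene, 57 of 2, 45 of 3 or more and 50 of none.

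**Figure D4:**
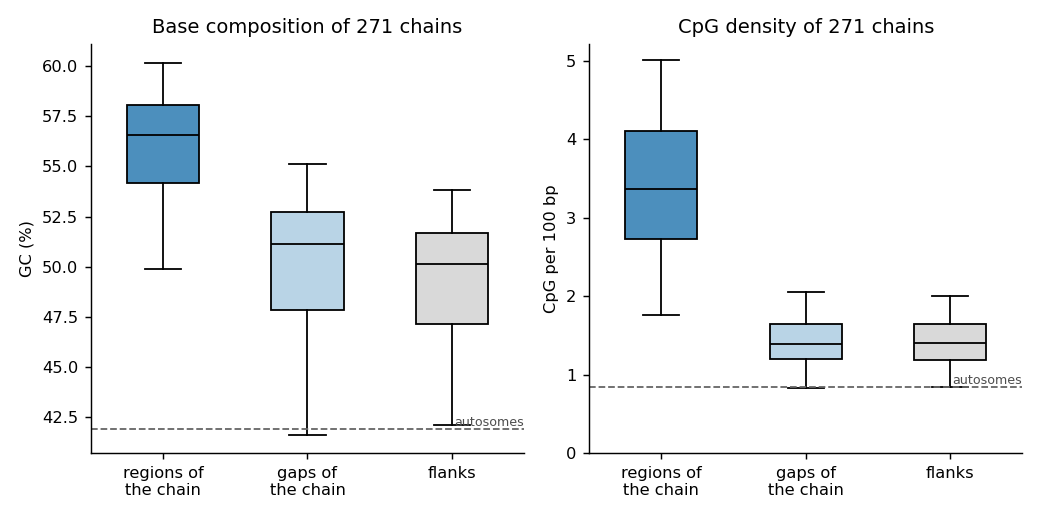
GC content (left, y axis in %) and CpG per 100 bp (right) of the regions, of the gaps between regions and of flanks of equal length, over 271 chains. Boxes give quartiles with the median, whiskers the 5th and 95th percentiles, and the dashed line the value over the autosomes. Gaps and flanks have similar CpG density (means 1.43 and 1.42), and regions have 3.40.

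Chains with more gene starts agreed better between the replicates. Of the regions in the 45 chains with 3 or more gene starts, 54.8% were found in both replicates, against 44.2% with 2, 41.0% with 1 and 33.0% with none. Their spans were longer too, with a median of 23535 bp against 14132 bp where there was no start, and denser in CpG (2.71 against 1.88 per 100 bp). Median fold enrichment in replicate 1 lay between 3.25 and 3.28 in the classes with a start and was 3.12 in chains without one.

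Some of the longest chains ran through dense neighbourhoods and held the starts of several genes, with more than 1 bead at some of them. In the chain from Pde4c to Il12rb1, 18 of 21 regions were at the start sites of 7 genes, among them Rab3a (a GTPase of synaptic vesicles), Pik3r2 (a regulatory subunit of phosphoinositide 3-kinase), Ifi30 (a lysosomal thiol reductase) and Il12rb1 (a receptor chain for interleukin 12), with a highest value of 3.92 in replicate 1 and 4.57 in replicate 2. A 17-region chain at chr10:79755225-79822980 likewise covered 7 genes, Apc2 (a relative of the tumour suppressor Apc), Rps15 (a ribosomal protein), Reep6, Pcsk4, Plk5, Adamtsl5 and 2310011J03Rik, with 11 regions at start sites. A 16-region chain at chr1:75432260-75493499 held Obsl1, Tmem198, Chpf, Gmppa and Accn4, with 9 regions at start sites. A 15-region chain at chr4:151480187-151536623 held Espn (an actin-bundling protein of hair cells), Hes2, Plekhg5 and Tnfrsf25, with 14. Its highest values were 4.63 and 5.58. Another 15-region chain covered 3 genes, Atcay, Matk and Zfr2, at chr10:80691577-80725821, with 3 regions in both replicates. An 11-region chain at chr8:107776863-107815734 held 6 starts, those of Hsf4 (a heat shock factor), Nol3, Tradd, Fbxl8, B3gnt9-ps and 4931428F04Rik.

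Others held the start of a single gene. The 19 regions of the Srcin1 chain, on a gene for an inhibitor of Src kinase signalling, included 1 at the start site, which reached 4.37-fold in replicate 1 and 4.84-fold in replicate 2. Of the others, 1 was intergenic and the remainder lay on exons or introns of the gene. Of all 19, 7 were called in replicate 1 alone, 6 in replicate 2 alone and 6 in both, and the values of both replicates stayed between 2.85 and 5.39. The 15-region chain on chromosome 18 lay within the gene model of Pcdhgc5, one of the clustered protocadherins, which are neuronal adhesion molecules with many alternative first exons, with 4 regions in both replicates. Of the 13 regions at Epha2, an ephrin receptor gene, in the chain at chr4:140827877-140868846, 4 lay on the gene and 9 upstream of it. In that chain 5 regions were in both replicates, and the highest values were 3.68 and 4.13, at the start of Epha2. The 12 regions at Nfic, a nuclear factor I gene, at chr10:80862983-80898416, of which 11 lay on the gene, had 6 in both, and the 9 regions around Pou3f3, a POU homeobox gene, at chr1:42740869-42778058, also had 6. A further chain held the starts of both Tbx21, the T-box gene of type 1 helper T cells, and its neighbour Tbkbp1. Its 15 regions were spread over 47453 bp of chromosome 11. The start-site regions reached 6.11-fold at Tbx21 in replicate 2 (4.82 in replicate 1) and 3.95-fold at Tbkbp1 (3.15 in replicate 1). In replicate 1 the highest value of the chain was on a coding exon of Tbkbp1, at 4.93 (3.94 in replicate 2).

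The next genes, known from blood and then from heart development, were picked by hand among genes on chains. Most of them also belong to the lists counted below. Other genes of those lists, among them Tal1, Gata2, Gata6, T and Eomes, had no start in a chain. Klf1, the erythroid Kruppel-like factor, lay at one end of a 15-region chain at chr8:87426505-87477025 that ran on through Dnase2a, Mast1 and Rtbdn. Its own region stood at 3.21-fold in replicate 1 and at 5.80-fold in replicate 2, where no other region of that chain was higher. Upstream on the same chromosome, Lyl1, a bHLH relative of SCL, overlapped by its gene body the 10-region chain at chr8:87225666-87276899 that covered part of Nfix. Cbfa2t3, the gene of the corepressor ETO2, lay at one end of an 11-region chain at chr8:125216438-125245552 in which values hardly varied, from 2.69 to 2.95 in replicate 1 and from 2.94 to 3.65 in replicate 2, and 3 regions were in both. The region at its annotated start was at 2.72 and 2.94 and thus stood no higher than its neighbours. Only called peaks have values, so lower signal along this chain is not seen. In replicate 1 its values reached only about the lower quartile of all members, 2.95. Zfpm1, the gene of the GATA cofactor FOG1, began inside a chain of 9 regions (chr8:124779280-124811455), and a second chain of 10 lay further along (chr8:124833072-124868579), mostly in the gene, with highest values of 3.51 and 4.13 in the first and, in a region of 7516 bp that is too wide to be a member, 5.24 and 6.65 in the second. Cbfa2t3, Lyl1 and the second Zfpm1 chain lay outside the rule for naming or came in by gene body alone, and were picked after their values were seen.

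On Mesp1 and Tbx3, 1 or 2 regions stood above the rest of their chains. Mesp1, the factor that marks cardiac mesoderm, sat in an 8-region chain at chr7:86925650-86945253. Its start-site region had values of 4.21 in replicate 1 and 6.84 in replicate 2, whereas the other 7 regions, where called, lay between 2.79 and 3.67. On Tbx3, a T-box gene of the cardiac conduction system, 1 region reached 5.02-fold in replicate 1 and 8.504-fold in replicate 2, the highest member value in that replicate, and its neighbour 3.94 and 5.88. The other 7 regions of that chain lay between 3.15 and 4.32. Hand2, a bHLH factor of the right ventricle, had a 13284-bp region over its gene with values of 3.69 and 6.31, and another region of its chain was as high in replicate 1 (3.73). Of the 9 regions of that chain, 6 were in both replicates. Gata4, a zinc finger factor of the early heart, had 7 regions, of which 4 were in both. An intronic region (4.56 and 5.38) and one on a coding exon (4.17 and 5.40) were its highest, while the start-site regions stayed between 3.14 and 4.20. In these 4 chains the top value in replicate 2 was above that in replicate 1, the direction in which 76.5% of all members called in both lay.

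**Figure D5:**
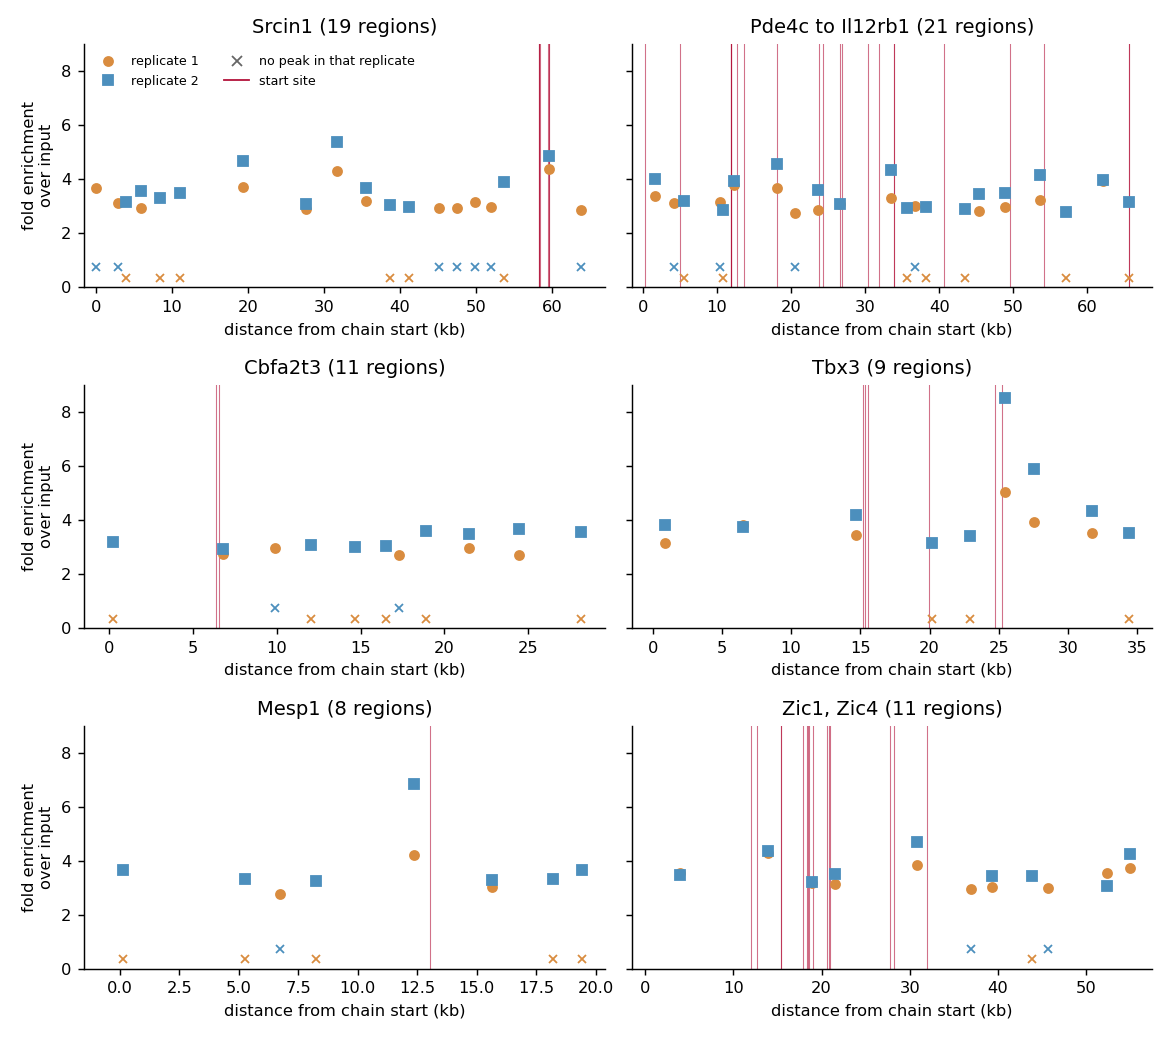
Fold enrichment over input (y axis, linear) of each region along 6 chains, placed at the centre of the region (x axis, kb from the chain's first base). Orange circles are replicate 1, blue squares replicate 2, crosses near the axis mark regions with no peak in that replicate, and vertical lines are annotated start sites. Values of called peaks are flat along Cbfa2t3 (2.69 to 3.65), and single regions stand out on Tbx3 (5.02 and 8.504) and Mesp1 (4.21 and 6.84).

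Counted over genes, 403 of 21281 autosomal protein-coding genes (1.89%) had a start within a chain. The developmental lists cover chosen gene families only. Listed homeobox genes outside Hox had 15 of 86 (17.4%), with Dlx3, Dlx4, Pou3f3 and Lhx6 in the longest chains. Homeobox genes left out of that list, such as Onecut1, Gsx2, Mnx1 and Barx1, also had starts in chains. T-box genes had 4 of 15 (Tbx21, Tbx3, Tbx2 and Tbx10), Pax genes 3 of 9 (Pax7, Pax2 and Pax3) and Gata genes 2 of 5 (Gata3 and Gata4). The bHLH list had 6 of 40, led by Hes2, Neurod2, Hand2 and Mesp1, and the zinc finger list 5 of 34, led by Zic1, Zic4, Zfpm1 and Zic2. Sox genes had 1 of 17 (Sox2), and signalling genes 4 of 78 (Wnt10a, Wnt6, Dll4 and Fgf8). Among 24 Polycomb genes 4 had their start in a chain, namely Cbx2 and Cbx8, readers of methylated histone H3, and Bmi1 and Pcgf1, which are alternative subunits of Polycomb repressive complex 1. Of replication-dependent histone genes 6 of 67 were in chains, of clustered protocadherins 1 of 24 and of Zfp-named zinc finger genes 4 of 358. No start was in a chain for 1106 olfactory receptors, 326 vomeronasal receptors and 51 keratins. With 3 counts over the list size as the upper limit of a 0, the limits are 0.271%, 0.920% and 5.88%. They treat genes as independent draws, which neighbouring genes of 1 family are not. The lists were made with earlier results in view, so these counts are descriptions.

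The highest value at a start site exceeded the member median for 37 of 39 transcription factor genes of the 8 lists in replicate 1 and for 38 of 38 in replicate 2, and for 269 of 341 (78.9%) and 290 of 357 (81.2%) of the other genes with a start in a chain. These values include regions too wide to be members, and each is the highest of all regions at a gene's starts. Such a maximum tends to exceed a median over single members, of which 39.1% were at a start site. On the Dlx3 and Dlx4 pair, homeobox genes of the branchial arches, a 14-region chain at chr11:94979250-95017899 had 4.07 in replicate 1 and 3.90 in replicate 2 at Dlx3 and 3.72 and 4.66 at Dlx4, while 4 regions in a row between those were called in replicate 2 alone, at 3.09 to 3.52. The Zic1 and Zic4 pair had 11 regions over 56011 bp, of which 8 were in both replicates, and 4.29 and 4.35 in the region over both starts. Neurod2, a neuronal bHLH gene, had 4.69 and 4.71. Sox2 had 4.54 and 5.81, and Pax2, of the kidney, had 4.24 and 5.60. Cbx2 had 3.73 and 4.78, and Bmi1 had 4.10 and 5.81. The chain of Bmi1 and Commd3 at chr2:18592628-18621325 had 5 of 6 regions in both replicates and the members with the second and sixth place among the strongest, one intergenic (5.40 and 5.70) and one at Commd3 (5.45 and 5.06).

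The other members of highest value lay at Grb10, an imprinted growth-factor-receptor adaptor gene (5.37 in replicate 1 and 7.06 in replicate 2), at Nrxn2, a neurexin (5.28 and 5.46), and at B4galnt1, of ganglioside synthesis (5.25 and 7.80). Nes, which encodes the intermediate filament nestin, had 5.06 and 6.53, Pou3f1 had 5.04 and 5.84, and Cacna1h, a calcium channel subunit, had 5.01 and 6.53. The leading member was intergenic, at chr15:75810990-75813319, with 5.44 and 6.66 and 6.09 CpG per 100 bp. All the same, 1.99% of members with a peak in replicate 1 and 6.02% in replicate 2 reached 5-fold, against 2.78% and 10.03% of isolated regions.

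Chains were unevenly spread over the chromosomes. Chromosome 8 had 38 chains (14.0%) with 272 members, although 7.92% of the autosomal regions were on it. Chromosome 11 had 36 chains (13.3%, with 10.2% of the regions) and chromosome 4 had 29 (10.7%, with 8.01%). Chromosome 16 had 2 (0.738%, with 2.56% of the regions). Median fold enrichment of members was lower on chromosome 8 than on any other autosome, at 2.92 in replicate 1 and 3.28 in replicate 2, and 32.4% of them were at a start site. Isolated regions were also lower on chromosome 8, with medians of 3.07 and 3.38 and 48.5% at a start site, against 3.32, 3.64 and 62.8% over the autosomes. Part of the chromosome 8 count lay in one place. The gene model Gm20388, which the annotation draws over 4434882 bp at chr8:122434741-126869622 and which encloses 74 other protein-coding genes, overlapped 12 chains, and 7 overlapped no other gene. The 14 regions at chr8:122928076-122966920 and the 12 at chr8:122799425-122835218 were among them, with highest values of 2.73 in replicate 1 and 3.601 in replicate 2 for the first and 3.04 and 3.53 for the second. They lay before Gse1 on the chromosome, a gene whose protein associates with histone deacetylase complexes, whose start lay in a chain of 9 regions, 6 of them on the gene, with highest values of 4.46 and 4.36. Without chromosome 8 the start-site share of members was 40.4% and the CpG-rich share 11.0%.

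One chain stood apart. At chr9:3000017-3038201, at the first assembled bases of chromosome 9, 6 regions covered 83.4% of 38185 bp with 12 gene models named Gm, more starts than in any other chain. Its values were low, at most 2.24 in replicate 1 and 1.57 in replicate 2, its GC content was 34.9%, and 90.9% of its 37-base words, the read length, occurred more than once in it, against a median of 0.327% per chain. Whether reads there were placed correctly was not tested. Without it the remaining 270 chains held 6.84 gene starts per 100 kb.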

How the data were processed

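RYBP ChIP-seq of 2 samples of FLK1+ mesoderm was analysed from the deposited peak lists. According to the study's methods and the submitters' processing notes, the authors aligned paired reads to mm9 with Bowtie 1.1.2b, removed duplicates, called broad peaks per replicate with MACS2 2.0.10 and merged them with bedtools. The deposited lists give, per peak, a fold enrichment (a linear ratio over the local background) and a score of 10 times the −log10 q. They also give the −log10 p-value and −log10 q-value as the authors' caller wrote them. The merged list has positions only, and all 22409 of its regions equalled the union of both lists once replicate 2 starts were moved by 1 bp. Read totals stated by the study, which were higher for replicate 1, are not in these lists and were not used here, and the read counts behind each peak are unknown.

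Merged regions were chained as described (gap of at most 5 kb, at least 5 regions, members under 4000 bp). A region was found in a replicate where it overlapped a peak of it by at least 1 bp, and it took the highest fold enrichment of those peaks. Genes were 21281 autosomal protein-coding models of GENCODE vM1 on NCBIM37, the same assembly. Flanks had the length of the span on either side. Exact binomial intervals came from scipy 1.17.1, run with Python 3.11.15 and pandas 2.3.3. The chain code was tested on simulated regions. Named were the 10 chains with the most regions, the 5 with the most gene starts, the 5 longest on 1 gene (also given without Gm20388), the 10 members with the largest smaller fold enrichment, up to 4 genes per list from the longest chains, and chains at the edge of the rule. The count for the forkhead list is not reported here. Others are said to be named after their values were seen. Members, lists and alternatives were chosen with earlier results of these data known. Alternatives changed the gap, chain length, list, peak threshold, replicate, width, overlap, start-site window and gene models.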

Additional observations from a re-analysis of the deposited data

How the results depend on the processing

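No paired analysis was possible because no result comes from a test and only the group of RYBP ChIP samples was analysed. A value was taken as moved where it differed from that reported by more than the standard deviation between the lists of the single replicates, and a count where it differed by more than 1.5 times. The number of chains and members depended on the rule and on the list more than on anything else. A gap of at most 2 kb left 55 chains with 271 members, 10 kb gave 521 with 3646, at least 8 regions left 52 with 513, and at least 4 gave 496 chains. Regions found in both replicates gave 32 chains with 130 members, and peaks with −log10 q of at least 2 gave 35 with 154. A single replicate gave 107 to 143 chains with 571 to 824 members. The share of members found in both replicates was 73.4% at −log10 q of at least 2 and 24.1% where 50% of the region had to be covered. With a single replicate it was 60.8 to 69.35%, but every member then had a peak in its own replicate. That value is the share also called in the other replicate, a different measure from the 38.0% of the merged list. The standard deviation by which this share was judged moved came from these single-replicate values.

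The share of members at a start site was 36.5% at 2 kb, 42.8% at 10 kb, 40.7% with at least 4 regions, 49.2% for regions found in both replicates, 41.9% with no width limit, 26.1% with a window of 1 kb, 44.2% with all annotated genes and 39.0 to 41.2% with a single replicate. GC content of the spans was 52.1% for regions found in both replicates, 51.6% at −log10 q of at least 2, 49.9% for the gaps alone and 52.0 to 53.0% with a single replicate. CpG per 100 bp was 2.56 at 2 kb, 2.17 at 10 kb, 2.45 and 2.28 with at least 4 and 8 regions, 2.72 for regions found in both replicates, 2.78 at the stricter threshold, 1.43 for the gaps and 2.63 to 2.69 with a single replicate. Gene starts per 100 kb were 7.88 at 2 kb, 6.45 at 10 kb, 7.635 and 5.45 with at least 4 and 8 regions, 7.22 for regions found in both replicates, 7.75 at the stricter threshold, 8.59 with all annotated genes, 7.20 without chromosome 8, 6.84 without the chain at the start of chromosome 9 and 7.15 to 7.35 with a single replicate.

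Isolated regions exceeded members in the start-site share by 23.7 percentage points and in the CpG-rich share by 40.9. These differences kept their direction under the 13 and 11 alternatives run on them, all chosen after seeing the data as were the 2 that leave out chromosome 8 or the chain on chromosome 9. The first was 35.7 for regions found in both replicates, 40.3 at the stricter threshold, 34.4 with a window of 1 kb and 26.9 to 31.2 with a single replicate, and the second 57.2, 48.8 and 39.1 to 44.0. The cause of these changes was not tested. Peak lists cannot show whether a region called in 1 replicate was absent from the other.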
